A study of Rattus norvegicus with 4 samples.

Results

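Upstream open reading frames (uORFs) lie in the leader of an mRNA, between its 5′ end and the start codon of the annotated protein. Short uORFs were taken as every ORF that the deposited annotation classes as a uORF and that is at most 72 nt long, with the 3-nt stop codon not counted. They numbered 686 of 18847 listed ORFs, on 602 genes. The annotation also holds 669 longer uORFs and 15034 annotated coding ORFs. Ventricular cardiomyocytes from the hearts of Sprague-Dawley rats at postnatal day 2 had been cultured after a plating step that removes non-cardiomyocytes. Cells exposed to phenylephrine (PE, an agonist of α1-adrenergic receptors that makes cultured cardiomyocytes grow) at 20 µM for 24 h were compared with control cells labelled as untreated, with 2 libraries in each group. Ribosome profiling was the readout: mRNA fragments protected by ribosomes (footprints) were sequenced and counted on each ORF, so a count reflects both the amount of mRNA and its translation. RNA-seq was not analysed here, and these contributions are not separated.

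Ribosomes scan the leader from its 5′ end and can start at an upstream AUG before they reach the coding sequence. A ribosome that translates a uORF may fall off, may resume scanning and start again downstream, or may have skipped the upstream AUG through leaky scanning, so uORFs often reduce or tune the output of the main ORF. Textbook examples are Atf4, whose uORFs let its protein be made when initiation factor eIF2 is phosphorylated, and genes of polyamine metabolism such as Azin1. In heart muscle cells, α1-adrenergic agonists raise protein synthesis as part of hypertrophic growth.

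The short uORFs encode between 10 and 24 residues, with a median of 17 (51 nt). Of the 602 genes, 532 carried 1 short uORF, 60 carried 2, 6 carried 3 and 4 carried 4. A P-site is the codon position at which a footprint's ribosome held its growing peptide. P-sites were deposited per reading frame, as 1 number for all libraries, and 54934 of them fell on short uORFs, from 5 to 1895 per uORF with a median of 38. A median of 82.7% of a short uORF's P-sites were in its own frame (interquartile range 72.96% to 89.12%), against 78.6% for longer uORFs and 84.1% for annotated ORFs. The share was under 50% for 16 of the 686. Whether the reading frame was a criterion for listing an ORF is not stated in the labels or file headers.

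**Figure D1:**
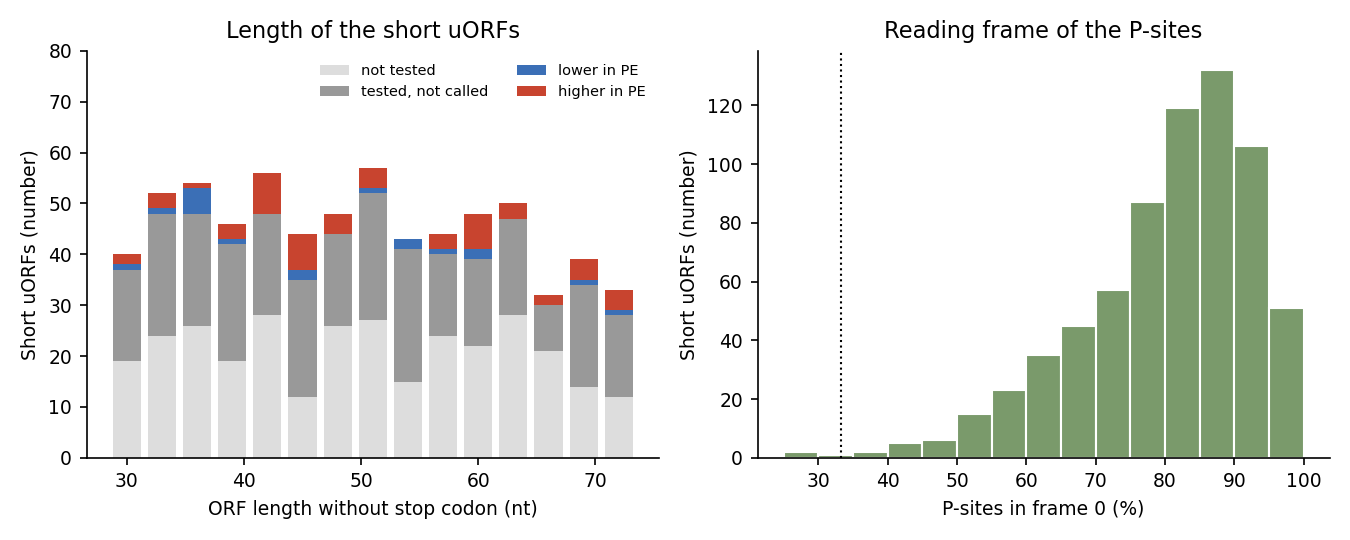
The left panel counts short uORFs by length in nucleotides and stacks those not tested, tested and not called, lower in PE and higher in PE. The right panel is a histogram of the percent of P-sites in frame 0 for the 686 short uORFs, with a dotted line where 3 frames would share them evenly; most uORFs lie between 70% and 95%.

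Their stop codons lay a median of 93.5 nt before the annotated start codon (interquartile range 44.25 to 181 nt), and 186 of the 686 ended within 50 nt of it. They began a median of 117 nt from the transcript's 5′ end. Relative to the coding sequence, 218 were in the same frame and 224 and 244 in the other frames. The encoded peptides were rich in arginine, which made up 9.95% of their 10726 residues, against 8.79% in longer uORFs and 5.73% in annotated ORFs. Lysine (3.66% against 5.86%), glutamate (4.94% against 7.26%) and isoleucine (2.49% against 4.21%) were scarcer than in annotated ORFs, and tryptophan (2.19% against 1.17%) was more frequent. These are descriptions of the listed sequences, with no test.

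For part of the set, the bases around the start codon could be read from RefSeq promoter windows (assembly GRCr8, 250 bases before to 50 after each gene's start). A window existed for the genes of 533 short uORFs, and for 53 of them an ATG was found whose translation is the whole listed peptide. Each line below gives 30 bases, 5′ to 3′, with 9 bases before the start codon, which is in capitals. They are the 5 matched uORFs that changed in PE and that of Ppargc1a, shown because initiation depends on the bases around the AUG, above all on a purine at position -3 and a G at position 4, with the A of ATG at position 1.
Polr1d, 33 nt, chr12:13118075-13118104, minus strand: tttcgcgacATGgggaagatcttccttttc
Pam, 57 nt, chr9:105570246-105570275, plus strand: aggttccgaATGatgactgacgcgggtctg
Agtr1a, 33 nt, chr17:34435404-34435433, minus strand: agggactggATGatgctgtcccgctggaga
Tm7sf2, 48 nt, chr1:212789524-212789553, minus strand: cggggactgATGcagaggcgtagccaggcc
Ppargc1a, 45 nt, chr14:63634271-63634300, plus strand: gttgcctgcATGagtgtgtgctgtgtgtca
Ankrd50, 54 nt, chr2:123427331-123427360, minus strand: cctttgctaATGaaggctatggaaccaaat

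Of these sequences, that of Polr1d has both favoured bases and the other 5 have neither. Over the 53 matched uORFs, 30 (56.6%) had a purine at position -3, 24 (45.3%) had G at position 4, 17 (32.1%) had both and 16 had neither. Among all 191 ATGs on the same strand of the 61 windows searched, those of the uORFs included, the shares were 57.1%, 35.1% and 20.9%. The matched uORFs lie close to the gene's start by construction of the windows and do not stand for all 686.

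Library totals ran from 11446574 to 13827599 footprints on listed ORFs. Over the tested short uORFs, chi-square over its degrees of freedom was 1.55 between the control replicates and 1.60 between the PE replicates, more than sampling noise gives, so each library entered as a sample. Since no label ties them to separate cultures, all p-values refer to the spread between libraries, which may be technical. Cardiomyocyte markers were abundant, at a summed 77340 CPM (counts scaled to the size of the library) in both control libraries and 94490 and 95240 in PE (7 of 9 markers listed, 3 higher and 4 lower in PE). Nppa (log2 fold change, PE over control, 1.86), Actc1 (0.51) and Tnnt2 (0.17) were higher. Myh6 (-1.31), Ryr2 (-0.87), Tnni3 (-0.20) and Myh7 (-0.06) were lower, so the sum does not measure the share of cardiomyocytes. The 8 fibroblast markers summed to 34440 and 34700 CPM in control and to 20830 and 21070 in PE. Of these, 5 were lower, 1 (Dcn) was higher, Lum was not called (-0.01) and Col1a2 was at or near 0 counts throughout. All 6 macrophage markers were lower (454.0 and 432.1 CPM in control, 290.8 and 280.9 in PE), as were 3 of 5 listed endothelial markers and 4 of 5 smooth muscle markers, of which Cnn1 was higher.

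Short uORFs took a small share of all footprints, and that share was higher in PE. In control they held 0.111% and 0.109% of counts, and in PE 0.123% and 0.125%. The difference of 0.0139 percentage points exceeded the spread between replicates (mean 0.110% ± 0.00125 in control and 0.124% ± 0.000945 in PE, SD, n = 2 each). An exact two-sided permutation test gave p = 0.333, the smallest p that 2 against 2 libraries allow. Longer uORFs held 0.149% and 0.147% in control and 0.169% and 0.164% in PE. For uORFs that overlap the coding sequence the values were 0.0953% and 0.0956% against 0.100% and 0.0990%, and for downstream ORFs 0.04876% and 0.04996% against 0.05026% and 0.04955%. The 10 most abundant short uORFs held 19.9% of the counts on short uORFs, and without them the difference was 0.0107 percentage points.

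**Figure D2:**
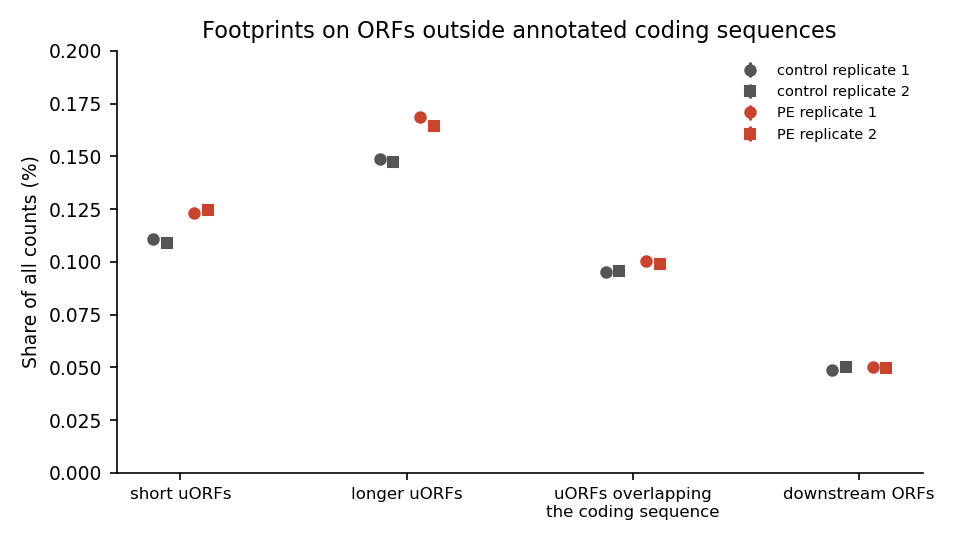
Share of all footprint counts, in percent, on 4 classes of ORF outside annotated coding sequences, with a point for each library. The 95% Wilson intervals cover counting error only and are smaller than most points. The PE points lie above the control points for short and longer uORFs, and the groups overlap for downstream ORFs.

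Of the 686 short uORFs, 48 had 0 counts in every library and 369 had enough counts to be tested individually. In PE, 55 of the 369 were higher and 18 were lower than in control, at an adjusted p under 0.05 in edgeR's quasi-likelihood test over all 12609 tested ORFs. That is 14.9% higher and 4.88% lower. Over all tested ORFs, 42.7% were called, 21.4% higher and 21.3% lower, over annotated ORFs 22.3% were higher and 22.7% lower, and over longer uORFs 11.8% were higher and 6.48% lower. The median total count was 40 on short uORFs and 521.5 on annotated ORFs, and most calls on short uORFs were rises. At least 2-fold changes made up 30 of the 55 rises and 13 of the 18 falls. The count filter keeps an ORF with enough footprints in only 1 group, which favours large changes among sparse uORFs in advance. The groups of libraries did not overlap for any of the 73 called uORFs, nor for 54.7% of the tested short uORFs (68.6% of all tested ORFs). Without PE replicate 2, 34 were higher. Of the 73, 25 (20 higher and 5 lower) were called in each of the 4 fits that left out 1 library, and 9 in none of them. DESeq2 on the same counts called 18 higher and 7 lower, and the authors' deposited table also lists 18 higher and 7 lower.

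The median log2 fold change (PE over control) of the tested short uORFs was 0.20, with 245 of 369 above 0, and that of the tested longer uORFs was 0.14. The median over all tested ORFs was 0.00 and over annotated ORFs -0.01. Length moved with this value. Among annotated ORFs the median was 0.13 for those up to 300 nt, 0.12 from there to 600 nt, 0.05 to 1200 nt, -0.02 to 2400 nt and -0.13 above that. With a smooth trend of fold change on length removed, 32 short uORFs were higher and 29 lower, 50 of these 61 being among the 73 called before. At these lengths the trend is fitted almost only on the short uORFs themselves, 369 of the 431 tested ORFs up to 72 nt. A trend fitted on annotated ORFs alone, of which 12 are up to 150 nt, reaches the same 0.21 at its short end and also left 32 higher and 29 lower. A shift shared by short ORFs and one particular to uORFs cannot be told apart here.

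**Figure D3:**
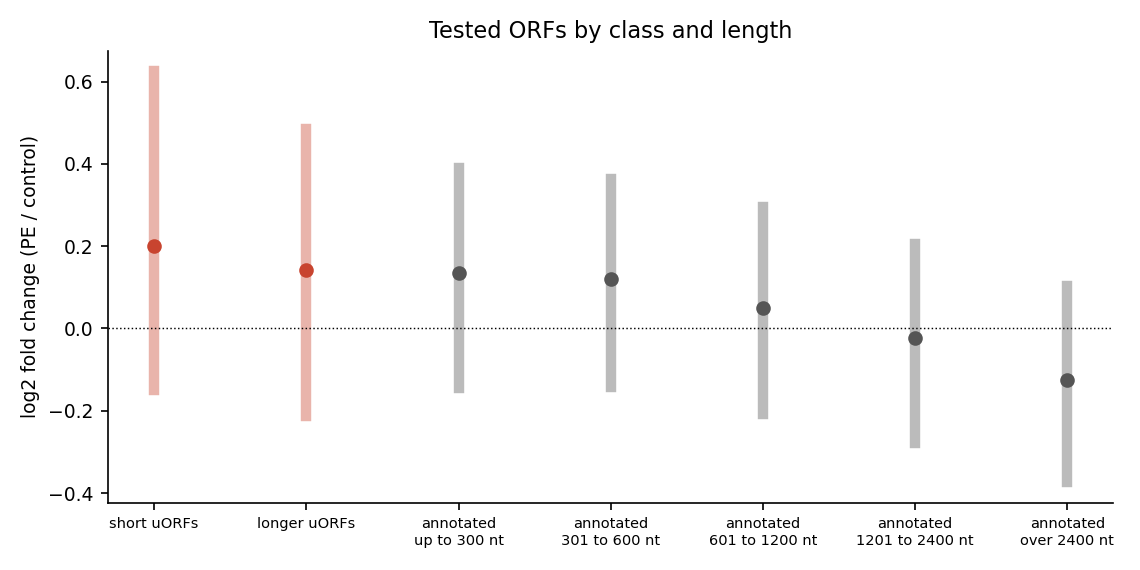
Log2 fold change of PE over control for tested short uORFs (369), longer uORFs (355) and annotated ORFs in 5 length classes; points are medians and bars run from the lower to the upper quartile. The medians fall from 0.20 for short uORFs to -0.13 for annotated ORFs over 2400 nt, and the bars overlap.

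Bmp2 encodes a bone morphogenetic protein ligand. Its 60-nt uORF ends 9 nt before the coding sequence (chr3:126336169-126336231, plus strand, Rnor_6.0 as for all uORF positions) and had 8 and 15 footprints in control and 33 and 43 in PE. Both PE libraries were higher than both controls, at a log2 fold change of 1.80 ± 0.39 (SE, adjusted p = 0.000301). The coding ORF was at 0.51 ± 0.08, and the difference between these ORFs was not called in the test of pairs given below. The 45-nt uORF of Vegfd, a lymphatic growth factor, had 65 and 80 footprints in control and 21 and 45 in PE, a change of -1.05 ± 0.27 (adjusted p = 0.00198). The PE libraries differed from each other here, and without PE replicate 1 the change was -0.63 and not called (adjusted p = 0.088), and without PE replicate 2 it was -1.68.

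The 36-nt uORF of Cilp, a matrix protein, had 30 and 36 footprints in control against 10 and 12 in PE (log2 fold change -1.50 ± 0.40, adjusted p = 0.00251). On Gas6, a ligand of the Axl family of receptors, the 57-nt uORF had 83 and 90 against 42 and 60 (-0.69 ± 0.22, adjusted p = 0.0111; 0.162 without PE replicate 1). Ccdc80, a secreted matrix protein, carries the third most abundant short uORF, 60 nt long, with 425 and 488 footprints in control and 331 and 318 in PE (-0.41 ± 0.09, adjusted p = 0.000299). These 3 uORFs and their coding ORFs went down together: the coding ORFs changed by -1.40 for Cilp, -0.69 for Gas6 and -0.47 for Ccdc80. Fewer cells of a type and less RNA per cell cannot be told apart in such bulk libraries. The summed fibroblast markers were lower in PE as given above, and the part of cell makeup in these falls was not tested.

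Dcn, the proteoglycan decorin, went the other way. Its 45-nt uORF had 432 and 557 footprints in control and 531 and 572 in PE, a change of 0.24 ± 0.08 (adjusted p = 0.0121), while its coding ORF rose by 0.70. The normalised groups did not overlap but lay close together. The call was lost without PE replicate 2 (adjusted p = 0.093), without control replicate 1 (0.116), with DESeq2 (0.13) and after removal of the length trend (0.84).

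The short uORF with the smallest adjusted p was on a receptor gene. Csf2rb encodes the β subunit shared by the receptors for several cytokines, and its 51-nt uORF (chr7:119554376-119554429, plus strand, 104 nt before the coding sequence) had 50 and 62 footprints in control and 183 and 206 in PE. That is a log2 fold change of 1.87 ± 0.16 (adjusted p = 2.4e-11), and the coding ORF rose by 1.52 ± 0.05. Tnfrsf1a, a receptor for tumour necrosis factor, has a 60-nt uORF that rose from 139 and 152 footprints to 254 and 224 (0.79 ± 0.13, adjusted p = 5.6e-06). Its coding ORF rose by 0.17, and the difference between these ORFs was not called in the test of pairs given below. Adra1a is the α1A-adrenergic receptor and so a target of PE. Its 42-nt uORF had 58 and 88 footprints in control and 104 and 120 in PE (0.70 ± 0.18, adjusted p = 0.00233), and the coding ORF rose by 0.73. DESeq2 left the Adra1a uORF just short of the threshold (adjusted p = 0.0507).

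The angiotensin II receptor gene Agtr1a has 2 short uORFs. The 33-nt uORF, whose start is printed above, had 35 and 43 footprints in control and 24 and 11 in PE, a change of -1.07 ± 0.37 (adjusted p = 0.0178). The 39-nt uORF had 35 and 51 against 43 and 20, at -0.36 ± 0.32 (adjusted p = 0.386), and its groups overlap. The coding ORF fell by 1.14 on the log2 scale, from 1485 and 1893 to 711 and 742. PE replicate 2 is the lower PE library for both uORFs. Without it the 33-nt uORF was not called (-0.60, adjusted p = 0.267; -1.76 without PE replicate 1), nor was it without control replicate 2 (adjusted p = 0.058). Without PE replicate 1 the 39-nt uORF was called (-1.04, adjusted p = 0.0356).

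The 36-nt uORF of Gpnmb, a membrane glycoprotein abundant in macrophages, fell from 133 and 177 footprints to 88 and 95 (-0.68 ± 0.16, adjusted p = 0.000599), beside -0.68 for its coding ORF. Of 3 short uORFs on Cdh11, a cadherin of mesenchymal cells, the 45-nt uORF that starts 252 nt into the transcript fell from 52 and 61 to 39 and 21 (-0.83 ± 0.29, adjusted p = 0.0195), beside -0.57 for the coding ORF. It shares its span with another listed ORF and was not called without PE replicate 2 (adjusted p = 0.332), and was at -1.37 without PE replicate 1. Macrophage markers and the sum of the fibroblast markers were lower in the same libraries, although Dcn was higher and Lum was not called. The part of cell makeup in both changes was not tested.

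Mapk6, an atypical MAP kinase, carries 4 short uORFs, of which its 51-nt uORF rose from 19 and 27 footprints to 53 and 74 (1.54 ± 0.29, adjusted p = 4.1e-05). Its 54-nt uORF had 9 and 11 against 10 and 16 and was not called (0.45, adjusted p = 0.51), and the other 2 were not tested. The Mapk6 coding ORF rose by 1.36, but it had only 0.198 counts per P-site, against a median of 1.23 over short uORFs, so its counts do not cover all of its footprints. Zdhhc9, a palmitoyltransferase, has a 66-nt uORF that rose from 13 and 26 to 49 and 59 (1.55 ± 0.31, adjusted p = 0.000126), and its coding ORF rose by 1.28. Becn1, a core protein of autophagy, has a 57-nt uORF that rose from 21 and 13 to 51 and 47 (1.59 ± 0.34, adjusted p = 0.000235). Its coding ORF, with 0.455 counts per P-site, was at 0.30, and the difference was not called in the test of pairs.

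The 48-nt uORF of Rab32, a small GTPase of membrane traffic, rose from 18 and 37 footprints to 61 and 63 (1.25 ± 0.28, adjusted p = 0.000421). Sgms1, sphingomyelin synthase, and Sipa1l2, a GTPase-activating protein, had uORFs with few footprints. The 60-nt uORF of Sgms1 went from 20 and 8 to 30 and 35 (1.27 ± 0.41, adjusted p = 0.0127) and the 63-nt uORF of Sipa1l2 from 17 and 9 to 36 and 27 (1.34 ± 0.41, adjusted p = 0.00854). In both, control replicate 2 was the lowest library, and without it the values were 0.63 (adjusted p = 0.289) and 0.82 (adjusted p = 0.177), while Sgms1 was at 2.21 without control replicate 1. They were also not called without PE replicate 2 for Sgms1 (adjusted p = 0.055) and without PE replicate 1 for Sipa1l2 (adjusted p = 0.0966). St3gal1, a sialyltransferase, had a 39-nt uORF that fell from 38 and 52 to 19 and 28 (-0.85 ± 0.31, adjusted p = 0.0261), and was not called without PE replicate 1 (0.199) or control replicate 2 (0.144).

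Both called short uORFs on cardiac transcription factor genes, those of Gata4 and Nkx2-5, rose. Of 26 such genes listed, 3 had short uORFs, with 4 uORFs tested, 2 of them higher and none lower. Their median log2 fold change was 0.55, against 0.20 over all tested short uORFs, of which 14.9% were called higher. With only 4 uORFs on 3 genes, no trait of the list can be read from these values. Gata4, a zinc-finger factor of cardiac growth, has a 57-nt uORF with 144 and 140 footprints in control and 191 and 225 in PE (0.62 ± 0.14, adjusted p = 0.000358). Its 36-nt uORF, nearer the 5′ end, had 134 and 176 against 178 and 153 (0.18 ± 0.14, adjusted p = 0.332), with overlapping groups. The coding ORF of Gata4 was at 0.09 ± 0.04 and was not called (adjusted p = 0.059).

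Nkx2-5, a homeodomain factor of the heart, has a 60-nt uORF that ends 16 nt before the coding sequence (chr10:16636003-16636065, plus strand). It rose from 54 and 43 footprints to 76 and 105, at 0.97 ± 0.23 (adjusted p = 0.000829), while the coding ORF, with 773 and 950 against 854 and 897, was at 0.10 ± 0.06 (adjusted p = 0.17). The difference of 0.86 ± 0.27 between the ORFs of Nkx2-5 did not pass (adjusted p = 0.185), nor did that of 0.53 ± 0.17 for the 57-nt uORF of Gata4 (adjusted p = 0.185). Without PE replicate 1 the differences were 1.05 for Nkx2-5 and 0.59 for Gata4. Both were called at a mean count of at least 30 (adjusted p = 0.0448 for both). They were also called with no term for the library (0.0029 and 0.00294), a fit that treats the counts of both ORFs in a library as independent. Neither was called with limma on the log2 ratio, at a mean count of at least 5 or with the length trend removed. Esrrg, an oestrogen-related receptor, had a 30-nt uORF with 30 and 45 against 41 and 57 (0.47 ± 0.27, adjusted p = 0.177).

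Of 34 genes described as under uORF control, 8 had a short uORF, with 9 uORFs in all, 4 tested, 1 higher and 1 lower (that of Agtr1a above). The 66-nt uORF of Atf4 (chr7:121480746-121480814, plus strand), the fifth most abundant short uORF, had 215 and 253 footprints in control and 211 and 222 in PE. Its log2 fold change was -0.03 ± 0.11 (adjusted p = 0.844), and that of the coding ORF was -0.21 ± 0.10 (adjusted p = 0.071; 0.638 counts per P-site). Azin1, the inhibitor of antizyme, had a 51-nt uORF that rose from 63 and 58 to 80 and 97 (0.62 ± 0.21, adjusted p = 0.0156). That call was lost without PE replicate 2 (adjusted p = 0.144), without control replicate 2 (0.194), with DESeq2 (0.154) and after removal of the length trend (0.115). Of the genes set out to be named whatever their values, Atf4 and Azin1 had a short uORF, and Atf5, Ddit3, Ppp1r15a, Ppp1r15b, Ifrd1, Amd1 and Cebpb had none listed.

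On the lists of lipid genes, the short uORFs of Sqle and Ppard rose. Sqle, the squalene epoxidase of sterol synthesis, had a 39-nt uORF that rose from 26 and 34 footprints to 64 and 55 (1.07 ± 0.27, adjusted p = 0.00151), beside 1.07 for its coding ORF. The other tested uORFs of the sterol list were those of Scap (39 nt, 0.29, adjusted p = 0.443) and Insig2 (54 nt, 0.52, adjusted p = 0.464), both regulators of sterol sensing. The Insig2 value rests on single libraries, at 1.72 without control replicate 1 and -0.21 without control replicate 2. Among regulators of fatty acid use, the 42-nt uORF of Ppard, a nuclear receptor, rose from 41 and 35 to 65 and 72 (0.92 ± 0.25, adjusted p = 0.00312), but not without control replicate 2 (0.67, adjusted p = 0.073). Those of Cpt1b, the muscle carnitine palmitoyltransferase (57 nt, -0.64 ± 0.32, adjusted p = 0.11), and of Ppargc1a, a coactivator of mitochondrial genes (45 nt, -0.53 ± 0.45, adjusted p = 0.374), were not called, and their coding ORFs fell by 0.96 and 0.90. With the length trend removed the Cpt1b uORF was called lower (-0.84, adjusted p = 0.0351), and the Ppargc1a value was -1.02 without PE replicate 1 and -0.15 without PE replicate 2.

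Of 42 genes of growth factor and adrenergic signalling, 6 had a short uORF, 3 of which were tested and 1, that of Adra1a, was higher. The 30-nt uORF of Insr, the insulin receptor gene, had 16 and 17 footprints in control and 4 and 13 in PE and was not called (-0.87 ± 0.52, adjusted p = 0.185). Its value was -0.29 without PE replicate 1 and -1.92 without PE replicate 2. The list of translation factors had 1 short uORF, not tested. Early response genes, MAP kinase feedback genes, ion channels and ubiquitin ligases on the lists had no listed short uORF.

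Muscle and chaperone genes held some of the most abundant short uORFs. The most abundant was the 60-nt uORF of Smpx, a small muscle protein of the cytoskeleton, given with the pairs below. Lrrc39, a protein of the sarcomere's M-band, had a 51-nt uORF that fell from 42 and 47 footprints to 18 and 13 (-1.44 ± 0.34, adjusted p = 0.000932), beside -1.39 for the coding ORF; 51.04% of its P-sites were in frame. The 51-nt uORF of Hspb8, a small heat shock protein, rose from 148 and 219 to 243 and 266 (0.55 ± 0.12, adjusted p = 0.00038), and its coding ORF by 0.33. Polr1d, a subunit shared by RNA polymerases, has a 33-nt uORF with the favoured start printed above and 189 and 226 against 243 and 243 footprints (0.31 ± 0.11, adjusted p = 0.0306). No setting without 1 of the 4 libraries called the Polr1d uORF (adjusted p from 0.0713 to 0.127).

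**Figure D4:**
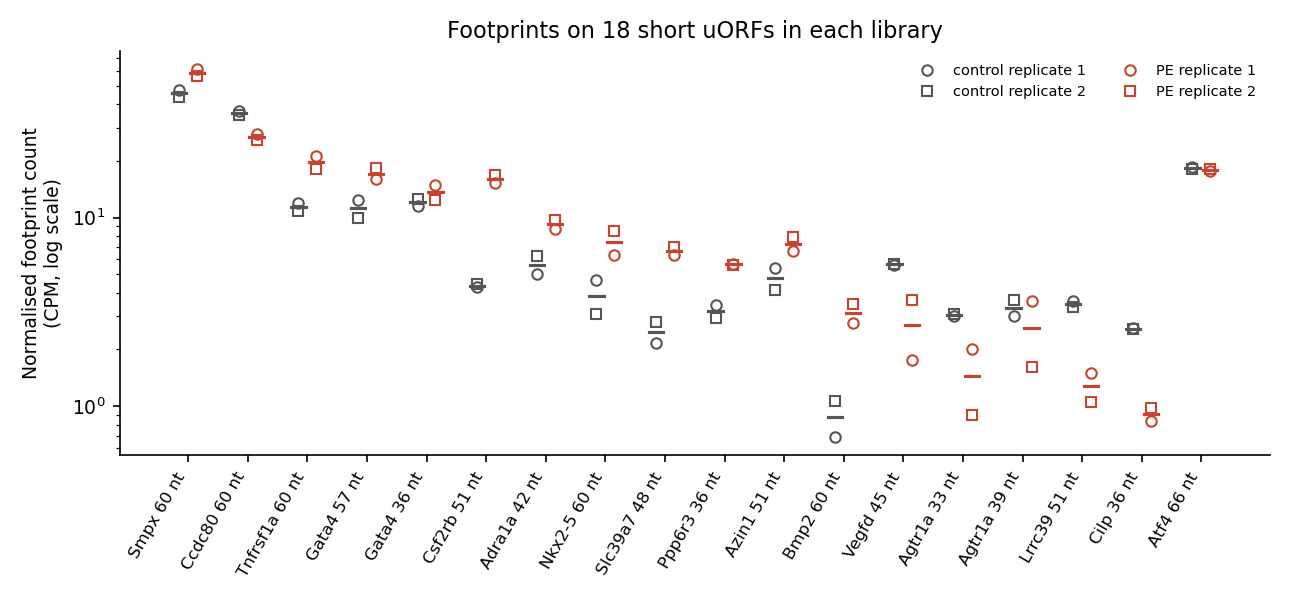
Normalised footprint counts (CPM, log scale) of 18 short uORFs in each library, with circles for replicate 1, squares for replicate 2 and dashes for group means. Csf2rb, Bmp2 and Slc39a7 lie higher in PE, Cilp and Lrrc39 lower, and the points of Gata4 36 nt and Agtr1a 39 nt overlap between groups.

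The largest changes on either side lay under the mean count of 20 set for naming and were picked out after their values were seen. A 60-nt uORF of LOC691485 had 33 and 38 footprints in control and 4 and 3 in PE (-3.22 ± 0.50, adjusted p = 2.5e-06). The 63-nt uORF of Lrrc8c, a subunit of volume-regulated anion channels, had 4 and 5 against 19 and 23 (2.27 ± 0.53, adjusted p = 0.000767). With so few footprints the sizes of these changes are imprecise. The uORF of LOC691485 passed the count filter through the control libraries alone, and that of Lrrc8c through the PE libraries alone. The filter thus favoured large changes in advance, and the small adjusted p-values add no independent support.

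The remaining changed uORFs with a printed start lie outside the naming rule and are given because their sequence was matched. Pam, an enzyme that amidates peptides and is abundant in atrial granules, has a 57-nt uORF that rose from 49 and 70 footprints to 114 and 135 (1.14 ± 0.19, adjusted p = 5.6e-06), beside 0.37 for its coding ORF. The 48-nt uORF of Tm7sf2, a sterol reductase, had 15 and 23 against 32 and 37 (0.94 ± 0.35, adjusted p = 0.0307). The 54-nt uORF of Ankrd50 had 18 and 16 against 2 and 7 (-1.82 ± 0.58, adjusted p = 0.0119). It passed the count filter through the control libraries alone, which favours a large fall in advance. The Tm7sf2 call was lost without PE replicate 1 (adjusted p = 0.0559), PE replicate 2 (0.142) or control replicate 1 (0.152), and that of Ankrd50 without PE replicate 1 (0.191) or control replicate 1 (0.145), with a value of -2.92 without PE replicate 2.

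Of the 25 uORFs called in every fit without 1 library, 4 others outside the naming rule were picked after their values were seen, and all 4 rose. Slc41a2, a magnesium transporter, had a 69-nt uORF with 27 and 32 footprints in control and 68 and 57 in PE (1.16 ± 0.27, adjusted p = 0.000586), although only 43.2% of its P-sites were in frame. The 33-nt uORF of Agpat4, an acyltransferase of phospholipid synthesis, had 19 and 23 against 45 and 43 (1.14 ± 0.31, adjusted p = 0.0036). On Uaca, which encodes a coiled-coil protein, the 69-nt uORF had 42 and 53 against 89 and 78 (0.89 ± 0.22, adjusted p = 0.00118). Pafah1b1 encodes Lis1, a regulator of the dynein motor, and its 72-nt uORF had 19 and 30 against 44 and 51 (1.03 ± 0.30, adjusted p = 0.00544). In each of these 4 the PE libraries lay above both controls, and the coding ORFs also rose, by 0.65 for Slc41a2, 0.79 for Agpat4, 0.44 for Uaca and 0.11 for Pafah1b1. DESeq2 did not call those of Agpat4 (adjusted p = 0.0585) and Pafah1b1 (0.0763).

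Each short uORF was then set against the main ORF of its gene, the annotated ORF with the most counts. The question was whether the uORF changed by more or less than this coding sequence. ORFs were matched by gene and not by transcript, so a uORF and its main ORF need not lie on the same mRNA. Both ORFs had a mean count of at least 10 in 339 pairs on 318 genes, and the difference between their fold changes was tested within libraries, with adjustment over all 671 pairs of uORFs of any length. In 4 pairs (1.18%, against 1.19% of all pairs) the uORF rose more than the main ORF. In 0 pairs it rose less, with 44 pairs more and 6 less at an unadjusted p under 0.05. With either 1 of the PE libraries left out, the count of pairs rising more was 13, and without control replicate 1 it was 2; without PE replicate 2, 3 pairs rose less. The median difference was 0.21 on the log2 scale, with 231 of 339 above 0, against 0.15 for 332 pairs of longer uORFs.

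The called pairs were those of Slc39a7, Ppp6r3, Smpx and Pnpla8. The differences for Bmp2, Tnfrsf1a, Becn1, Pam and Pafah1b1, whose uORFs had larger rises than their coding ORFs, were not called. Some alternative settings called them, such as the fit with no term for the library. Slc39a7 encodes a zinc transporter of the endoplasmic reticulum. Its 48-nt uORF (chr20:3822508-3822558, minus strand) had 25 and 39 footprints in control and 76 and 86 in PE, while its coding ORF went from 1745 and 2180 to 1605 and 1677. The difference of log2 fold changes was 1.60 ± 0.23 (adjusted p = 0.00204). Footprints per nucleotide on the uORF were 0.419 and 0.523 times those on the coding ORF in control and 1.385 and 1.5 times in PE, so the uORF went from the sparser to the denser of the 2 ORFs.

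Pnpla8, a calcium-independent phospholipase, had 11 and 11 footprints on its 48-nt uORF in control and 26 and 37 in PE, beside 778 and 911 against 771 and 739 on the coding ORF (difference 1.67 ± 0.38, adjusted p = 0.0487). For Ppp6r3, a regulatory subunit of a serine/threonine phosphatase, the 36-nt uORF had 40 and 41 against 68 and 69 and the coding ORF 2791 and 3323 against 2702 and 2627 (0.95 ± 0.21, adjusted p = 0.0487). On Smpx (chrX:40086768-40086830, minus strand) the 60-nt uORF had 554 and 607 against 732 and 692 and the coding ORF 3105 and 3652 against 2937 and 2829 (0.52 ± 0.12, adjusted p = 0.0487). In all 4, the uORF rose by the test on all ORFs, while the coding ORF fell slightly for Slc39a7 (-0.18), Ppp6r3 (-0.12) and Smpx (-0.15) and was not called for Pnpla8 (-0.08).

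The last 3 calls sit at the threshold. Without control replicate 1, Pnpla8 (adjusted p = 0.0756) and Ppp6r3 (0.0534) were not called, and without control replicate 2, Pnpla8 (0.193), Ppp6r3 (0.225) and Smpx (0.177) were not. With the length trend removed Slc39a7 alone was called, and limma on the log2 ratio called 0 of the 4 (adjusted p from 0.385 to 0.514). The rise of the uORF itself was not called for Pnpla8 without PE replicate 2 (1.33, adjusted p = 0.0504), nor for Ppp6r3 without control replicate 2 (0.71, adjusted p = 0.0584) or with DESeq2 (0.0792). Once the trend on length was taken out, that of Smpx was not called (adjusted p = 0.0508). In the other direction, the nearest among the genes named above was Dcn, whose uORF rose less than its coding ORF by 0.46 ± 0.13 (adjusted p = 0.123). The Dcn difference was called without control replicate 1 (adjusted p = 0.0264), at a mean count of at least 30 (0.0259) and with no term for the library (2.1e-06).

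**Figure D5:**
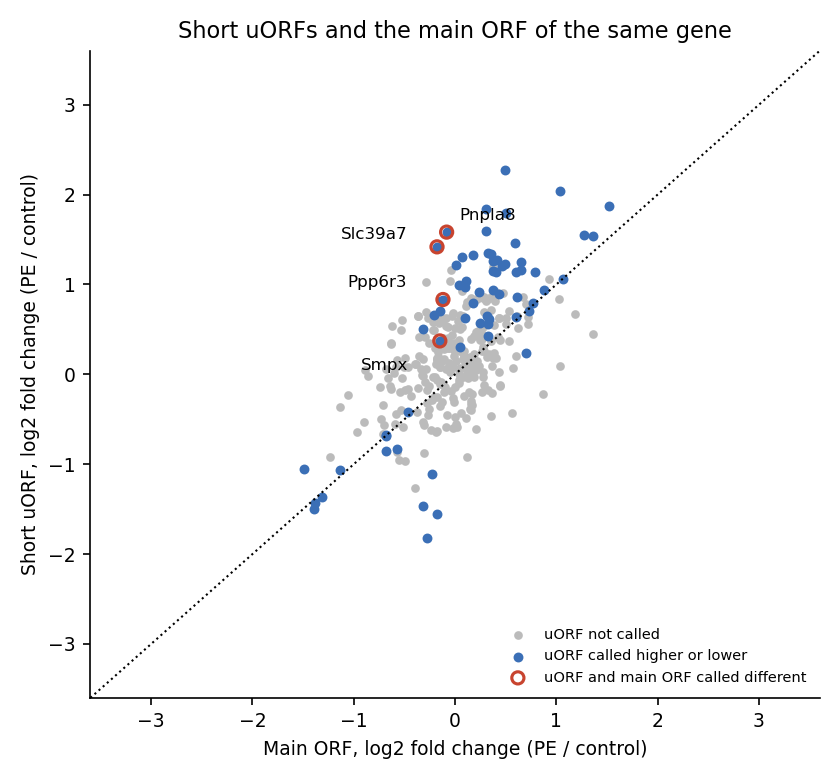
Log2 fold change (PE over control) of short uORFs against that of the main ORF of their gene. Of the 339 pairs, those whose uORF was tested individually are drawn (53 higher, 14 lower and 265 not called). The dotted line marks equal change. Blue points are uORFs called higher or lower, and red rings mark the 4 pairs with a called difference, all above the line.

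Called uORFs and their main ORFs mostly went the same way. Of 53 higher uORFs in pairs, the main ORF was higher for 37, not called for 9 and lower for 7. Of 14 lower uORFs, it was lower for 12 and not called for 2. Over the 318 main ORFs, 28.6% were called higher and 24.2% lower. Where the uORF was not called (265 pairs), the main ORF was higher for 68 and lower for 60. A pair's 2 counts come from the same libraries, so these tallies are a description of shared direction and not a test.

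Per nucleotide, short uORFs carried more footprints than the coding sequence in most of the tested pairs. A pair needed a mean count of at least 10 on its uORF, which on so short an ORF leaves out the sparse ones. This filter favours high ratios in advance, so the values below do not stand for all short uORFs. The median ratio of uORF to main ORF density was 1.48 and 1.51 in control and 1.71 and 1.70 in PE, and the uORF was the denser ORF in 213 and 216 of 339 pairs in control and in 238 and 235 in PE. In 179 pairs it was denser in every library. The range among named genes was wide. On Polr1d the uORF was 16.4 and 15.5 times as dense in control and 18.6 and 19.4 times in PE, and on Atf4 10.3 and 9.52 times against 11.2 and 11.2 times. On Gpnmb it was sparser, at 0.210 and 0.225 against 0.213 and 0.224. Main ORFs in 23 of the 339 pairs had under 0.5 counts per P-site, as for Becn1 and Mapk6, which raises this ratio. The counts per P-site of the Atf4 coding ORF, given above, were also below those of its uORF (1.23), which raises the Atf4 ratio.

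At the length limit, 33 short uORFs were exactly 72 nt long, with 21 tested, 4 higher and 1 lower, and 31 uORFs just outside it were 75 nt long, with 16 tested, 3 higher and 0 lower. The most abundant just inside were those of Crls1, cardiolipin synthase (77 and 65 footprints in control, 58 and 82 in PE), Popdc2, a cAMP-binding membrane protein of muscle (68 and 57 against 59 and 57, at 0.402 counts per P-site) and Slc20a2, a phosphate transporter (40 and 50 against 54 and 32). Just outside were those of Myoz2, a Z-disc protein (178 and 262 against 267 and 275), Nfe2l1, a stress-responsive transcription factor (82 and 95 against 73 and 99), and Cggbp1, a repeat-binding protein (31 and 37 against 56 and 34). The limit fell inside a continuous range of lengths.

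The 317 short uORFs that were not tested held few footprints. Of these, 269 had counts in at least 1 library, and together the 317 held 0.0119% and 0.0117% of all counts in control and 0.0120% and 0.0129% in PE. Differences on them were not detectable at this depth. Of the 686, 94 had a span, introns included, that met another listed ORF's on the same strand, 22 of them tested. Where translated bases are shared, which was not determined, their footprints could belong to either. Without the 94, 52 were higher and 17 lower. Of the 369 tested uORFs, 359 had at least 10 P-sites and 50% of them in frame, and among these 54 were higher and 18 lower. So few were left out that the counts could hardly move, and they say little about reading frame.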

How the data were processed

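Per the labels' protocols, footprints were made by RNase I digestion of lysates of cycloheximide-washed cells, recovery of monosomes on spin columns, depletion of ribosomal RNA and excision of fragments of 26 to 30 nt. The submitters' processing notes name cutadapt 2.0, Bowtie 1.1.2, STAR 2.4.2a and Rnor_6.0; neither they nor the labels name the ORF caller or the counting program. The authors' deposited table of raw counts per ORF was the input, as whole numbers. Per the file headers, a second table by the authors gives ORF class, length, coordinates, peptide, P-sites per frame and their own DESeq2 log2 fold changes and adjusted p-values. Groups come from the sample titles and treatment labels, since the treatment protocol text mentions PE for all 4 libraries.

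Counts of all ORFs were filtered with filterByExpr, scaled by TMM factors of 0.982 to 1.02 and tested in R 4.3.3 with edgeR 4.0.16, using its robust quasi-likelihood test on the 4 libraries, with Benjamini-Hochberg adjustment over 12609 ORFs and a threshold of 0.05. The common biological coefficient of variation was 2.18%. A standard error is the log2 fold change over the root of F. CPM use the TMM-scaled totals. Pairs were tested in edgeR by the interaction between treatment and kind of ORF, with a term for each library, which leaves 2 residual degrees of freedom. Alternatives used DESeq2 1.42.0, limma 3.58.1 and other filters, scalings and samples. Scripts were tested on simulated data. Coordinates are 1-based and include the stop codon and any introns.

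Members and lists were chosen with earlier results of these data known. Named uORFs are the 10 largest called rises and all 9 called falls with groups apart and a mean count of at least 20. To these come called pairs (up to 8 each way), the 8 of highest CPM and those of 10 preset genes. Up to 4 per list and 3 on each side of the length limit complete the set. The 10 lists comprise described uORF hosts, cardiac transcription factors, early response genes, MAP kinase and Gq feedback, growth factor and adrenergic signalling, translation factors, sterol genes, ion channels and calcium handling, ubiquitin ligases, and fatty acid and mitochondrial regulators. Intervals on shares cover counting error only.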

Additional observations from a re-analysis of the deposited data

How the results depend on the processing

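The count of higher short uORFs, 55, was 18 with DESeq2, 11 in a test against a 1.5-fold change and 32 with the length trend removed, both for the trend over all ORFs and for that over annotated ORFs alone, which was added after seeing the data. Leaving out 1 library gave 34 to 43, the 34 without PE replicate 2. The count of lower ones, 18, was 7, 4, 29 and 29 under the same settings and 12 to 15 without 1 library. RLE size factors (55 and 18), library totals (48 and 21), no low-count filter (56 and 16) and the choices of uORFs above stayed within 1.5 times. Of 40 uORFs described and called, 28 were not called under at least 1 setting and 0 reversed; 16 were not called by DESeq2 and 27 in the 1.5-fold test.

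The 4 pairs with the uORF rising more became 18 with no library term, 11 at a mean count of at least 30, 1 at a mean count of at least 5, 0 with limma, 1 with either length trend removed, and 2 to 13 without 1 library (2 without control replicate 1, 13 without either PE library). Pairs with the uORF rising less, 0, became 3 with no library term, 2 at a mean count of at least 30 and 0 to 3 without 1 library (3 without PE replicate 2). Except in settings that leave out samples, the causes were not tested. The share difference was 0.0107 percentage points without the 10 most abundant short uORFs, and 0.0131 or 0.0140 under the other choices.

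Same-numbered libraries did not deviate together (correlation -0.00382 over tested ORFs and -0.0267 over short uORFs), so the numbers were not used to pair them. With a replicate block, 53 short uORFs were higher and 16 lower, and 16 pairs rose more and 3 less, among them those of Nkx2-5 (adjusted p = 0.0282), Gata4 (57 nt, 0.0483) and Dcn (0.00187). With 2 libraries a group and a median of 40 counts, small changes on most short uORFs are not detectable.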
